A study of Mus musculus with 6 samples.

Results

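The inhibitor of differentiation genes Id1, Id2, Id3 and Id4 and the myeloid transcription factor gene Spi1, which encodes PU.1, were compared between fetal livers of Rb null and wild type mouse embryos. The members were fixed by name and each was read by 1 probe set that the platform annotation assigns to that single gene symbol. All 5 were on the array, among 8251 genes with a single symbol, and 4 of them were among the 5273 genes whose mean signal passed the filter described below. RNA came from whole livers, dissected at embryonic day 12.5 and disaggregated in saline, of untreated embryos from matings of Rb heterozygous 129sv mice. There were 3 Rb null and 3 wild type embryos, each on its own Affymetrix array, so n = 3 per genotype throughout. The labels name no Cre and no tissue restriction of the Rb mutation, and do not say whether the embryos were littermates. The replicates are separate embryos, with no batch given.

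Id proteins have a helix-loop-helix domain for dimerisation but lack the basic region that contacts DNA. They bind E proteins such as those encoded by Tcf3, Tcf4 and Tcf12 and keep them, and tissue-specific partners such as Tal1, from activating their targets. Id genes are known as direct targets of BMP signalling through SMAD proteins. Id2 is known to bind the hypophosphorylated Rb protein, and it has been proposed to restrain PU.1 in macrophages of the Rb null fetal liver, the cells that support maturing erythroblasts. PU.1 is an ETS family activator that drives macrophage and granulocyte genes and opposes Gata1 in red cell precursors. An array of whole liver reads transcripts only, so it shows whether the Id2 and Spi1 transcripts differed and not how the proteins bind each other.

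The 250 bases before the start of Id2 and Id3 are shown because their transcripts gave the brightest signal and the largest change among the Id genes. The sequences are from RefSeq (GRCm38.p6), which lists windows here for 3 members, Id2, Id3 and Id4. They read 5′ to 3′ on the strand of the gene, at chr12:25096093-25096342 (minus strand) for Id2 and chr4:136143572-136143821 (plus strand) for Id3. Capitals mark every match, on either strand, to 8 searched motifs: the E-box CANNTG, where E protein dimers bind; the E2F motifs TTTCCCGC and also TTTGGCGC; the SMAD motifs GGCGCC and also CAGAC; the motif CCAAT; the core of PU.1 sites, GAGGAA; and the GATA motif AGATAA.
Id2: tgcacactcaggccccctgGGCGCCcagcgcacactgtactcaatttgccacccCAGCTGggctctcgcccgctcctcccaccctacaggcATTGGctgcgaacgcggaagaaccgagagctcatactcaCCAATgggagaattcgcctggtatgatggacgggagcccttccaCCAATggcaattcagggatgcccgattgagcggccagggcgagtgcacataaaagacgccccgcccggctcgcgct
Id3: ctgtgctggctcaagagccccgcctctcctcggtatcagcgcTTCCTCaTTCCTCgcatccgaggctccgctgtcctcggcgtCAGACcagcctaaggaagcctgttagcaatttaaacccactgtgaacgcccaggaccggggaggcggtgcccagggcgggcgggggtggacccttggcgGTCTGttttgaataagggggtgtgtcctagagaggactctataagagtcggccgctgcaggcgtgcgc

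The Id2 window held 3 CCAAT matches, at 159, 120 and 76 bases before the start, where 33.8% of 32851 windows of the same length hold at least 1. It also held 1 E-box, CAGCTG, at 196 bases (66.2% of windows hold an E-box) and 1 GGCGCC at 231 bases (9.59% of windows). The Id3 window held 2 CAGAC matches, at 167 and 68 bases (42.2% of windows), and 2 GAGGAA matches, at 208 and 201 bases (23.3% of windows). Neither window held TTTCCCGC (0.895% of windows), TTTGGCGC (0.417%) or AGATAA (9.99%). Thus the windows shared none of these matches. The Id4 window held 2 CCAAT matches and 1 GGCGCC. These are letter matches only, and no factor binding was measured.

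Signals are MAS5 values on a linear scale, and the 2% trimmed mean computed from them was about 500.2 units on every array. Log2 fold changes are Rb null minus wild type after adding an offset of 50.02 units, are given ± SE, and understate the change of dim genes. Genes with a mean signal above 150.1 were tested with limma, and "rose" or "fell" means an adjusted p below 0.05 over all tested probe sets. The labels were first checked on Rb1, whose brighter probe set read 139, 142 and 127 in Rb null embryos 1 to 3 and 791, 754 and 706 in wild type embryos 1 to 3. The position of its probes relative to the mutated part was not known here. Over the whole array 13.1% of tested genes rose and 9.5% fell, so that 22.6% were called in either direction. All 3 Rb null signals lay above all 3 wild type signals for 23.5% of the tested genes and below them for 17.6%. Scaling the arrays to equal medians turned the calls downward, with 25.1% of them upward against 57.9% as deposited. The counts dropped when 1 embryo was omitted, among them Rb null embryo 1 (417 higher and 291 lower in place of 690 and 501), Rb null embryo 2 (406 and 294) and wild type embryo 3 (467 and 257). These shares are the background against which the members and the gene lists are read. Counts at an unadjusted p below 0.05 are given for some lists, and the matching share of all tested genes was not counted. As markers of the labelled tissue, Hba-a1 (adult alpha globin) read 16320 ± 1370 (SD) in Rb null livers and 19150 ± 1062 in wild types, and Alb (albumin) read 13750 ± 258 and 15830 ± 825.

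Transcripts of 3 of the 4 Id genes, Id1, Id2 and Id3, rose in Rb null livers, by 1.23-fold to 1.53-fold, while Spi1 did not pass the test and Id4 was too dim to be tested. For each of the 4 Id genes all 3 Rb null signals lay above all 3 wild type signals, whereas the Spi1 signals of the genotypes overlapped. The same upward separation was seen in 23.5% of all tested genes, a share that does not cover the untested Id4. The rise was called in 3 of 4 tested members against 13.1% of all tested genes. With 4 members tested, and with rises of this size common on the array, this count describes these genes and is not a test of the family.

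Id3, at 136143822 to 136145392 on chromosome 4, showed the largest change. Its signal was 685, 625 and 780.2 in Rb null embryos 1, 2 and 3, and 423, 404 and 487 in wild type embryos 1, 2 and 3. The lowest Rb null liver was thus above the highest wild type liver. The means were 697 ± 78.1 (SD) and 438 ± 43.7, a 1.53-fold rise (95% confidence interval 1.30 to 1.80) with a log2 fold change of 0.61 ± 0.10 (limma adjusted p = 0.0052). A larger log2 fold change was seen in 2.88% of the tested genes. The rise passed the threshold under each of the 18 alternative settings tried, with values between 0.49 and 0.68 and adjusted p values from 0.0042 to 0.023.

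Id2, at 25093799 to 25096092 on chromosome 12, is the family member that binds the Rb protein. It read 3129, 3251 and 2941 in Rb null embryos 1, 2 and 3. The wild type embryos read 2788, 2348 and 2416, and the gap between the lowest Rb null and the highest wild type liver was narrow. The means were 3107 ± 156 and 2517 ± 237, a 1.23-fold rise (95% confidence interval 1.09 to 1.39) with a log2 fold change of 0.30 ± 0.08 (limma adjusted p = 0.025). The change was larger after quantile (0.40) and cyclic loess normalization (0.39). It was 0.17 with adjusted p = 0.15 after the arrays were scaled to equal medians, and the call was also lost without Rb null embryo 1 (adjusted p = 0.078), Rb null embryo 2 (0.084), wild type embryo 2 (0.069) or wild type embryo 3 (0.081).

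Id1, at 152736251 to 152737410 on chromosome 2, read 503, 451 and 552 in Rb null embryos 1, 2 and 3. It read 395, 357 and 410.3 in wild type embryos 1, 2 and 3, all below the Rb null livers. The means were 502 ± 50.6 and 388 ± 27.2, a 1.26-fold rise (95% confidence interval 1.08 to 1.47) with a log2 fold change of 0.33 ± 0.10 (limma adjusted p = 0.041). This call lay close to the threshold. It was lost under each of the 3 other scalings of the arrays (0.21 to 0.25, adjusted p from 0.11 to 0.17), and whenever 1 embryo was omitted, Rb null embryo 2 being the only exception (adjusted p from 0.066 to 0.11).

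Id4, at 48261116 to 48266028 on chromosome 13, stayed below the signal filter in every liver. Its signals were 91.0, 90.4 and 76.8 in Rb null embryos and 58.9, 72.0 and 38.0 in wild type embryos 1, 2 and 3. No detection call accompanies the signals, so none of these is shown to be above background. The means were 86.1 ± 8.03 and 56.3 ± 17.2, with a log2 difference of 0.37. When the filter was dropped the limma adjusted p was 0.20, and the difference ranged from 0.20 with an offset of 150.1 to 0.57 with an offset of 10.005.

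Spi1, at 91082374 to 91115759 on chromosome 2, read 378, 309 and 379.7 in Rb null embryos 1, 2 and 3. In the wild type embryos it read 339.5, 308 and 329.5, so Rb null embryo 2 lay inside the wild type range. The means were 356 ± 40.0 and 326 ± 16.4, with a log2 fold change of 0.11 ± 0.10 (limma adjusted p = 0.49). The 95% confidence interval ran from 0.918-fold to 1.26-fold, so a change of up to about the size of the Id1 and Id2 rises upward, or a smaller one downward, lies within it. Leaving out Rb null embryo 2 gave 0.19 (adjusted p = 0.23), and after median scaling the value was -0.01. In whole liver, fewer cells of a type and less RNA per cell cannot be told apart.

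**Figure D1:**
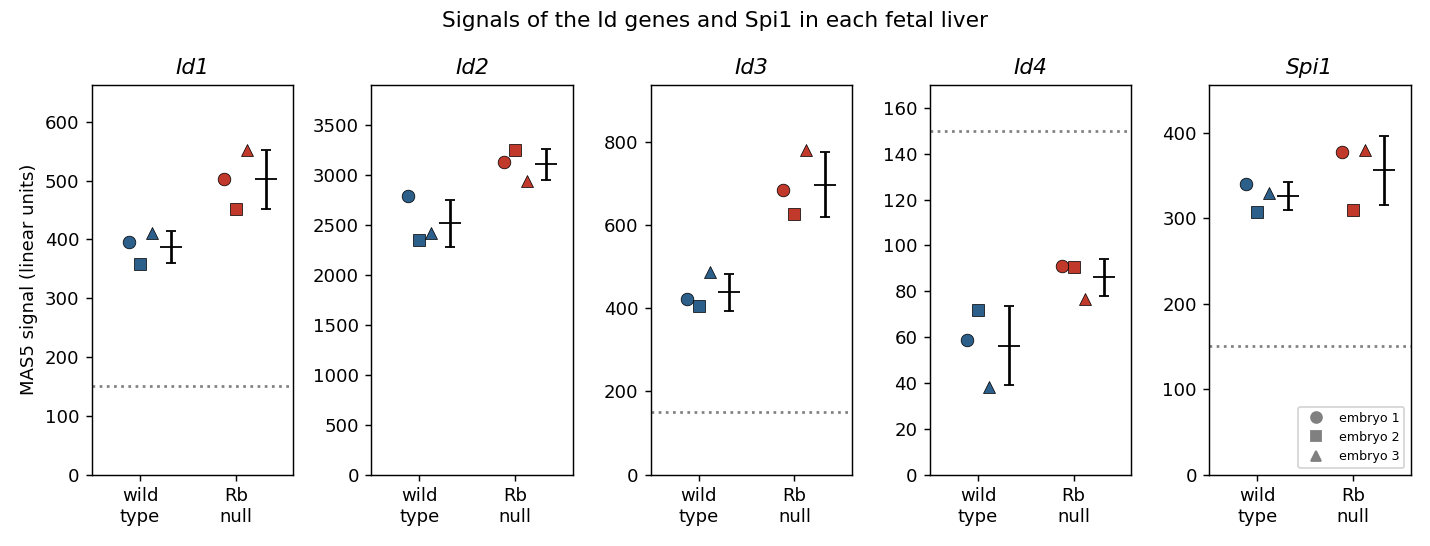
MAS5 signal (linear units, each axis from 0) of each gene in wild type (blue) and Rb null (red) livers, with marker shape for the embryo number, bars for mean ± SD of n = 3 embryos and a dotted line at the signal filter of 150.1 where it falls in the panel (it is left out for Id2). Id1, Id2 and Id3 are higher in all 3 Rb null livers, Id4 lies under the filter throughout, and the Spi1 groups overlap.

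The place of each gene within its own array was also compared, since a rank does not change when an array is rescaled. Id3 stood at the 73.5 to 78.5 percentile of the probe sets in Rb null arrays and at the 66.1 to 70.0 percentile in wild type arrays. Id2 stood at the 96.1 to 96.7 percentile against the 93.9 to 95.3 percentile. For Id1 the ranges were 66.8 to 71.4 and 63.6 to 66.5, which lie side by side without overlap. For Spi1 they were 59.1 to 63.8 and 60.6 to 62.6, the wild type range lying inside the Rb null one. Id4, under the filter, stood at the 32.9 to 35.3 percentile against the 25.4 to 32.1 percentile. The ranks of Id1, Id2, Id3 and Id4 thus separated the genotypes and those of Spi1 did not. The share of all genes with separated ranks was not counted. By signal, such separation was common, upward in 23.5% of the tested genes and downward in 17.6%.

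**Figure D2:**
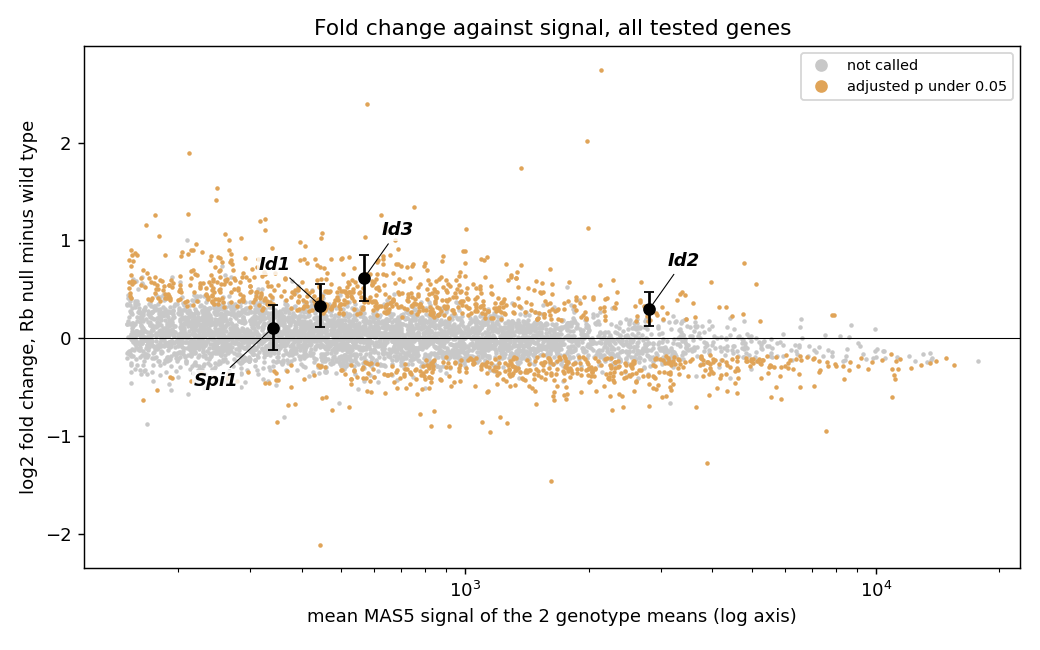
Log2 fold change (Rb null minus wild type) against mean MAS5 signal (log axis) for the 5273 tested genes, with limma calls at adjusted p below 0.05 in orange and the 4 tested members in black with 95% confidence intervals. Id3 lies among the larger rises, Id1 and Id2 show smaller called rises, and the Spi1 interval crosses 0.

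Scaling the arrays to equal medians moved the median log2 fold change of all tested genes from 0.02 to -0.10, so the members were also read relative to that median. Id1 lay 0.31 above it as deposited and 0.31 above it after median scaling. Id2 lay 0.28 and 0.27 above it, and 0.41 above it after quantile normalization. Id3 lay 0.59 above it under both scalings. Spi1 lay 0.09 above it under both. This near equality was fixed in advance, because median scaling multiplies each array by a constant and shifts all genes alike, apart from the offset. Quantile and cyclic loess normalization can move these distances. They gave 0.27 and 0.26 for Id1, 0.55 and 0.56 for Id3, and 0.03 and 0.02 for Spi1, with 0.40 for Id2 after cyclic loess. The calls against 0 for Id1 and Id2 were lost after median scaling.

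**Figure D3:**
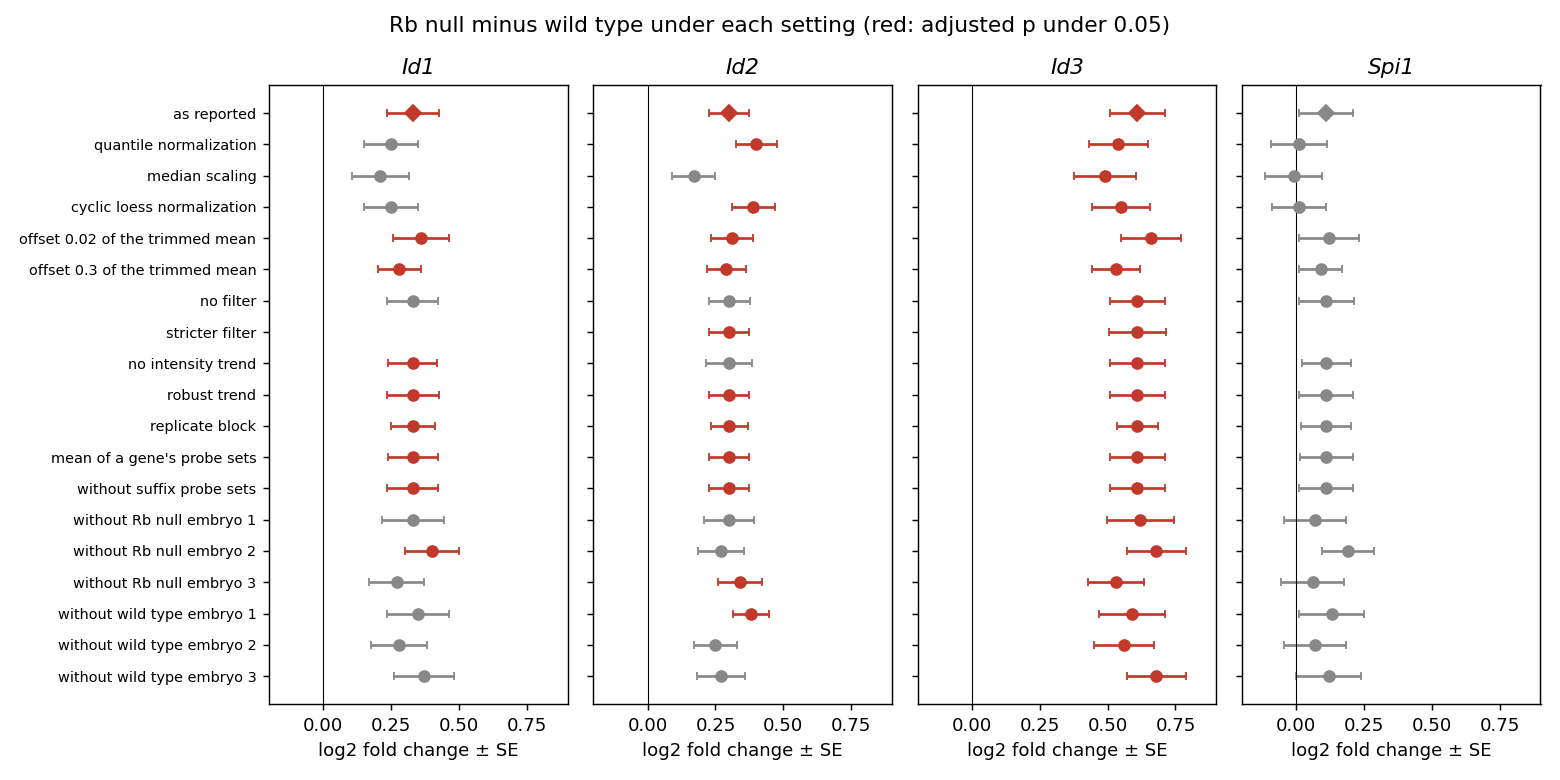
Log2 fold change ± SE of the 4 tested members as reported (diamond) and under each alternative setting (circles), red where the limma adjusted p is below 0.05; no point is drawn where a gene did not pass the filter. Id3 is red in every row, Id1 and Id2 turn grey under median scaling and without several of the embryos, and Spi1 is grey throughout.

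The members were then compared with each other within each array, as differences of log2 values. Such a difference does not depend on how an array was scaled by a constant beyond the small effect of the offset, and because probes differ in brightness only its change between genotypes has a meaning. Of 6 pairs, 3 separated the genotypes, each with an exact permutation p = 0.1, the smallest that 3 against 3 arrays allows. The adjusted p was 0.20 over the 6 pairs (two-sided), so no pair could pass the threshold. The 3 are not independent, since Id1 minus Spi1 is the sum of Id1 minus Id3 and Id3 minus Spi1 in every array. The share of all gene pairs that separate was not counted. Single genes separated by signal upward in 23.5% of the tested genes and downward in 17.6%.

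Id3 minus Spi1 changed most, from 0.37 ± 0.11 (SD) in wild type to 0.88 ± 0.09 in Rb null arrays, a difference of 0.51. Id1 minus Spi1 was 0.45 ± 0.07 in Rb null arrays and 0.22 ± 0.05 in wild types. Id1 minus Id3 was -0.44 ± 0.03 in Rb null arrays and -0.16 ± 0.07 in wild types, so Id3 was higher relative to Id1 in the Rb null arrays.

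The pair named in the proposal on Rb null macrophages, Id2 and Spi1, did not separate the genotypes. Id2 minus Spi1 was 2.89, 3.20 and 2.80 in Rb null embryos 1, 2 and 3, and 2.87, 2.75 and 2.70 in wild type embryos 1, 2 and 3. The mean difference was 0.19 (exact permutation p = 0.2, adjusted p = 0.24), and it became 0.39 after quantile and 0.37 after cyclic loess normalization. Id2 minus Id3 changed by -0.31 (exact permutation p = 0.2, adjusted p = 0.24) and Id1 minus Id2 by 0.03 (exact permutation p = 0.9).

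**Figure D4:**
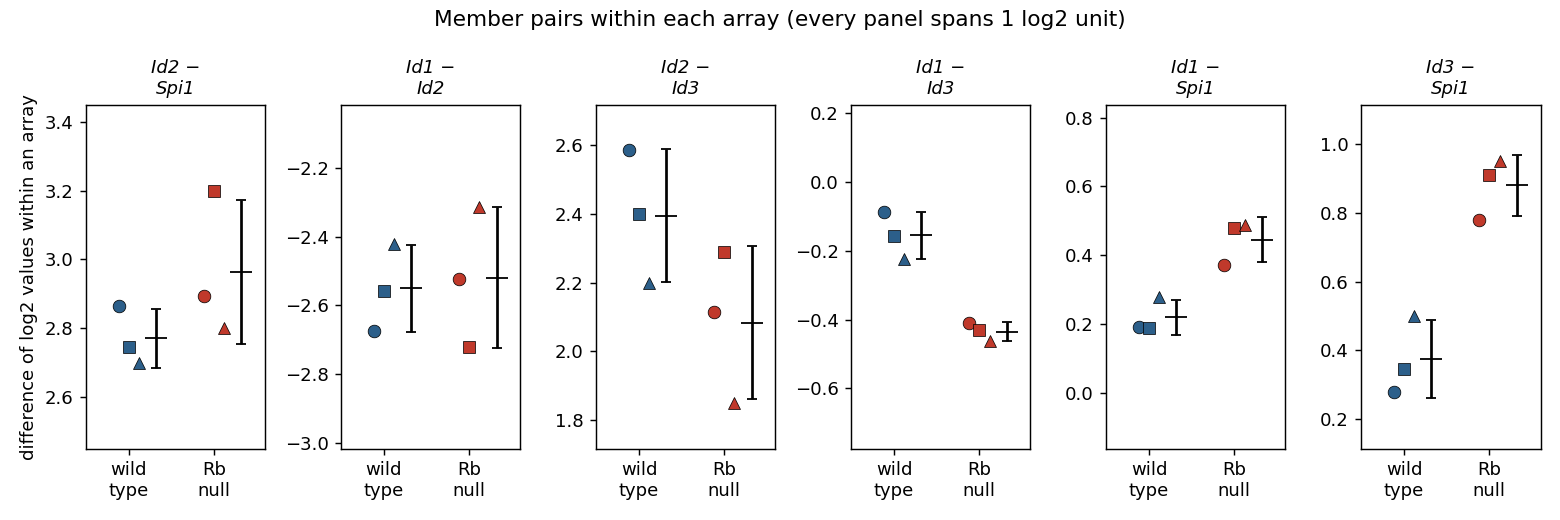
Difference of log2 values between 2 members within each array, with marker shape for the embryo number and bars for mean ± SD of n = 3 arrays; every panel spans 1 log2 unit. The genotypes separate for Id1 − Id3, Id1 − Spi1 and Id3 − Spi1, and overlap for Id2 − Spi1, Id1 − Id2 and Id2 − Id3.

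Within the Rb null genotype the embryos did not rank alike for all members. Embryo 2 was the lowest and embryo 3 the highest for Id1 (deviations of -0.14 and 0.13 from the genotype mean on the log2 scale), Id3 (-0.14 and 0.16) and Spi1 (-0.17 and 0.09). Id2 ran the other way, with embryo 2 the highest (0.07) and embryo 3 the lowest (-0.08). Among wild type embryos, embryo 2 was the lowest for Id1 (-0.10), Id2 (-0.09), Id3 (-0.10) and Spi1 (-0.07) alike. With 3 embryos per genotype these orders are descriptions.

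Other genes were ranked by how close their log2 values, centred on their mean over the 6 arrays, came to those of each member, as a root mean square distance over the 6 arrays among 5269 tested genes. Nearest to Id3, whose own spread was 0.33, were Rgs10 (distance 0.059), a regulator of G protein signalling, Eif4ebp1 (0.064), an inhibitor of cap-dependent translation, and D430019H16Rik (0.067). Nearest to Id2, with a spread of 0.17, were Map2k6 (0.034), a kinase upstream of p38, Xbp1 (0.039), a transcription factor of the unfolded protein response, and Cramp1l (0.040). Nearest to Id1, with a spread of 0.19, were the histone deacetylase gene Hdac3 (0.035), Sun2 (0.036) and Zfp777 (0.037). Nearest to Spi1, with a spread of 0.11, were Arf3 (0.024), Tmem109 (0.032) and Tmem160 (0.032). For the dim Id4, Helb (0.024), Trp53i13 (0.036) and Homer3 (0.042) came closest. All 3 neighbours were kept under 5 of 17 alternatives for Id1, 7 for Id2, 5 for Id3, 5 for Id4 and 8 for Spi1, so the order among close genes was not firm.

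Helix-loop-helix genes were listed, among them the E protein genes Tcf3, Tcf4 and Tcf12, on whose products Id proteins act. The list covers the class more widely than the known partners of Id proteins. It also holds Lmo2 and Ldb1, whose LIM-domain and LIM-binding proteins join Tal1 complexes but have no helix-loop-helix domain. Genes of this list moved in both directions. Of 17 tested of 22 on the array, 5 rose, 3 fell and 9 did not pass (median 0.09, against 0.02 for all tested genes). The untested genes, with means over all arrays under the filter, were Twist1 (227 in Rb null against 57.8 in wild type livers) and Hand2 (79.7 against 43.1). The others were Mxd1 (15.3 against 15.1), Tal2 (31.0 against 36.4) and Mitf (55.6 against 62.9). Of the E protein genes, Tcf4 rose from 275 ± 16.1 to 427 ± 29.5 (0.55 ± 0.09, limma adjusted p = 0.0046) and Tcf12 rose from 1540 ± 95.2 to 2018 ± 112 (0.38 ± 0.07, limma adjusted p = 0.0066). Tcf3, which encodes E2A and was named after its value was seen, read 270 ± 13.7 against 281 ± 32.4 (-0.05 ± 0.10, limma adjusted p = 0.79). Bhlhe40, a transcriptional repressor, rose by 1.41 ± 0.11, its wild type mean of 113 being under the filter. Tcf21, a factor of mesenchymal cells, rose by 0.57 ± 0.11.

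The members that fell were the haematopoietic factor genes Lyl1 (-0.35 ± 0.05), Lmo2 (-0.25 ± 0.05) and Tal1 (-0.21 ± 0.06), and the fifth that rose was Hes1, a repressor downstream of Notch (0.29 ± 0.09). These 4 were named after their values were seen. Only 1 of the 17 was lower after quantile or cyclic loess normalization or without Rb null embryo 1. The Lyl1 call was lost without probe sets whose suffix marks possible binding to several transcripts (-0.17, adjusted p = 0.085), and the Lmo2 call when its probe sets were averaged (-0.07, adjusted p = 0.29). The Tal1 and Hes1 calls, at adjusted p = 0.046 and 0.045, were lost whenever 1 embryo was omitted, other than wild type embryo 2. Both were also lost after quantile normalization (adjusted p = 0.074 and 0.14) or cyclic loess normalization (0.081 and 0.13), without a filter and with the replicate block. Tal1 was further lost without the intensity trend (0.081) and Hes1 after median scaling (0.17). Red cell markers fell in the same livers: 10 of 13 tested erythroid markers, Tal1 among them, with the median at -0.49 and summed signals of 64810 to 70880 against 83400 to 89850 in wild type. Their part in the falls of Lyl1, Lmo2 and Tal1 was not tested.

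Genes of the BMP and SMAD pathway list rose in part. BMP signalling acts upstream of Id genes, and the list also holds activin receptor and TGF-beta genes such as Acvr2a, Acvr2b and Tgfb1. Of 12 tested of 28 on the array, 5 rose, none fell and 7 did not pass by limma (median 0.22). Over all tested genes 13.1% rose and 9.5% fell. At an unadjusted p below 0.05 the list counts were 8 higher and 0 lower, with no share over the array to set beside them. The 5 rises became 2 after median scaling and 3 without Rb null embryo 1, Rb null embryo 2, wild type embryo 1 or wild type embryo 3. Smad6, an inhibitory SMAD that is itself a BMP target, rose from 491 ± 58.4 to 797 ± 46.8 (0.65 ± 0.09, limma adjusted p = 0.0028). Acvr2b, a type II activin receptor, rose from 470.0 ± 17.5 to 715 ± 22.7 (0.56 ± 0.07, limma adjusted p = 0.0015). Smad4, the common partner of the receptor-activated SMAD proteins, rose by 0.39 ± 0.09, but median scaling (adjusted p = 0.071) or the omission of Rb null embryo 2 (0.058) ended the call.

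The other rises were those of Acvr2a (0.32 ± 0.09) and of Tgfb1 (0.21 ± 0.06), the latter named after its value was seen. The Acvr2a call was lost under 10 of 17 alternatives and the Tgfb1 call under 11 of 18. The inhibitory SMAD gene Smad7 spread widely, at 470 ± 140.2 against 291 ± 66.6 (0.59 ± 0.22, limma adjusted p = 0.093). The BMP receptor genes Bmpr1a, Bmpr1b and Bmpr2 and the ligand genes Bmp2, Bmp5, Bmp6 and Bmp7 stayed under the filter. Outside the naming rule, the ligand gene Bmp4 was tested and read 260 ± 8.25 against 229 ± 36.1 (0.16 ± 0.12, limma adjusted p = 0.37). Smad1 read 756 ± 112 against 815 ± 104 (-0.10 ± 0.12, limma adjusted p = 0.59), so neither passed. Acvrl1 (0.06 ± 0.17, limma adjusted p = 0.84) and Eng (0.23 ± 0.08, limma adjusted p = 0.069), which are also endothelial genes, did not pass. Eng passed under 3 of 18 alternatives. In the same livers 6 of 12 tested endothelial markers rose (3 after median scaling or with the stricter filter), against 13.1% of all tested genes. Among these rises Emcn (231 against 136) had a wild type mean under the filter, so it was tested only through its Rb null signals. The summed signals below include it. Summed signals of the tested endothelial markers were 6704 to 7442 against 5448 to 5586 in wild type. The part of endothelial cells in the pathway or Id changes was not tested.

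Partners and opponents of PU.1 also moved in both directions. Of 14 tested of 21 on the array, 4 rose, 2 fell and 8 did not pass (median 0.23). None fell without Rb null embryo 2, Rb null embryo 3, wild type embryo 1 or wild type embryo 3, and 1 fell without Rb null embryo 1. Ets1, another ETS factor, rose from 189 ± 35.4 to 353 ± 19.5 (0.76 ± 0.13, limma adjusted p = 0.0051), and Ikzf1, the lymphoid and myeloid factor Ikaros, rose from 332 ± 6.08 to 577 ± 27.1 (0.72 ± 0.08, limma adjusted p = 6.4e-04). Cebpb, a factor of macrophages and hepatocytes, rose by 0.45 ± 0.07. Spib, the ETS factor closest to PU.1, fell from 254 ± 19.9 to 176 ± 20.9 (-0.43 ± 0.11, limma adjusted p = 0.030). The Spib call was lost without a filter (adjusted p = 0.070) and whenever 1 embryo other than wild type embryo 2 was omitted (adjusted p from 0.053 to 0.095).

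Outside the naming rule, Myb, a factor of blood progenitors, rose by 0.26 ± 0.07 and Gata1, the erythroid opponent of PU.1, fell by 0.25 ± 0.06. Irf8, which pairs with PU.1 in macrophages, read 305 ± 44.0 against 227 ± 36.4 (0.36 ± 0.14, limma adjusted p = 0.096). Averaging the Gata1 probe sets gave -0.04 (adjusted p = 0.79), and its call also ended when Rb null embryo 2 (0.063), Rb null embryo 3 (0.061), wild type embryo 1 (0.071) or wild type embryo 3 (0.074) was omitted. Median scaling reduced the Myb change to 0.12 (adjusted p = 0.32), and its call also ended without a filter (0.059), without the intensity trend (0.063) and whenever 1 embryo other than Rb null embryo 1 was omitted (adjusted p from 0.051 to 0.085).

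Known targets of PU.1 and other myeloid genes were called only upward where they were called. Of 26 tested of 39 on the array, 10 rose, none fell and 16 did not pass by limma (median 0.25). The shares over all tested genes were 13.1% higher and 9.5% lower. At an unadjusted p below 0.05 the list counts were 13 higher and 0 lower, again with no share over the array. The 10 rises became 5 after median scaling or without Rb null embryo 2, and 6 after cyclic loess normalization or without Rb null embryo 3. Csf2ra, the alpha chain of the GM-CSF receptor, rose from 114 ± 20.1, under the filter, to 216 ± 18.9 (0.70 ± 0.13, limma adjusted p = 0.0079). Cd53, a tetraspanin of white cells, rose by 0.59 ± 0.14, Coro1a, an actin regulator of white cells, by 0.51 ± 0.10, and Lyz2, the lysozyme of macrophages, by 0.48 ± 0.10. The Cd53 call ended under cyclic loess normalization (adjusted p = 0.051) or when Rb null embryo 2 (0.060), Rb null embryo 3 (0.054) or wild type embryo 1 (0.056) was omitted. Csf1r, the receptor for the macrophage growth factor and a direct PU.1 target, was named after its value was seen. It read 598 ± 31.5 against 475 ± 20.8 (0.30 ± 0.08, limma adjusted p = 0.025), a call lost under 7 of 18 alternatives, median scaling among them (0.18, adjusted p = 0.13).

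Beside the Spi1 values stand those of the cells that carry it. Of 18 macrophage markers on the array 10 were tested, and of these 4 rose, none fell and 6 did not pass by limma. Over all tested genes 13.1% rose and 9.5% fell. The median of the macrophage markers was 0.20, and the counts were the same at an unadjusted p below 0.05. Their summed signals were 6518 to 6999 against 5558 to 6093 in wild type. The 4 rises became 1 after median scaling, and 2 after quantile or cyclic loess normalization or without Rb null embryo 2, Rb null embryo 3, wild type embryo 2 or wild type embryo 3. Without a filter 3 macrophage markers were higher and 1 was lower. The brightest by the mean of all arrays was Vcam1, at 1514 ± 62.6 against 1197 ± 60.2, and the defining macrophage genes Adgre1 (163 against 124) and Itgam (27.2 against 30.3) had means over all arrays under the filter. Marco (88.0 against 165) and Spic (55.6 against 61.7) were under the filter too, with lower means in Rb null livers. Maf (79.9 against 42.8), Fcgr3 (111.5 against 94.7), Siglec1 (22.8 against 13.7) and Aif1 (33.2 against 24.3) were under it with higher means. Of 10 tested granulocyte markers 5 rose, or 3 without Rb null embryo 1 or after median scaling, and none fell, with S100a8 at 3213 ± 27.7 against 2140 ± 24.2. The Spi1 transcript thus showed a smaller fitted change (0.11) than the medians of the myeloid (0.25) and macrophage (0.20) lists, and the difference was not tested. These lists are not independent, since Cd68, Csf1r, Ctss, Lyz2 and Mrc1 are tested genes of both. Csf1r, Ctss and Lyz2 are among the rises of each. The granulocyte list shares Mpo, Elane, Prtn3 and Csf3r with the myeloid list. The part of myeloid cell numbers in these values was not tested.

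In none of the lists of endothelial, granulocyte, mesenchyme and megakaryocyte markers was a gene lower by limma or at an unadjusted p below 0.05. Of 10 tested mesenchyme and stellate markers 5 rose, or 3 after median scaling, and none fell. Of 4 megakaryocyte markers 3 rose, or 1 with the stricter filter, and none fell. Of 17 hepatoblast markers 3 rose and 2 fell. None of them fell without Rb null embryo 1, Rb null embryo 2 or wild type embryo 3, after cyclic loess normalization or without a filter. 1 fell without wild type embryo 2, after quantile normalization, without the intensity trend and with the replicate block. The hepatoblast rises became 5 without Rb null embryo 3 or after cyclic loess normalization, and 1 with the stricter filter. Of the 4 lymphoid and progenitor markers tested 1 rose (2 without wild type embryo 2 or with the stricter filter), the progenitor receptor gene Kit, from 501 ± 76.9 to 875 ± 27.0 (0.76 ± 0.11), named after its value was seen. Id genes are made in many of these cell types, and the part of cell composition in the Id changes was not tested.

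**Figure D5:**
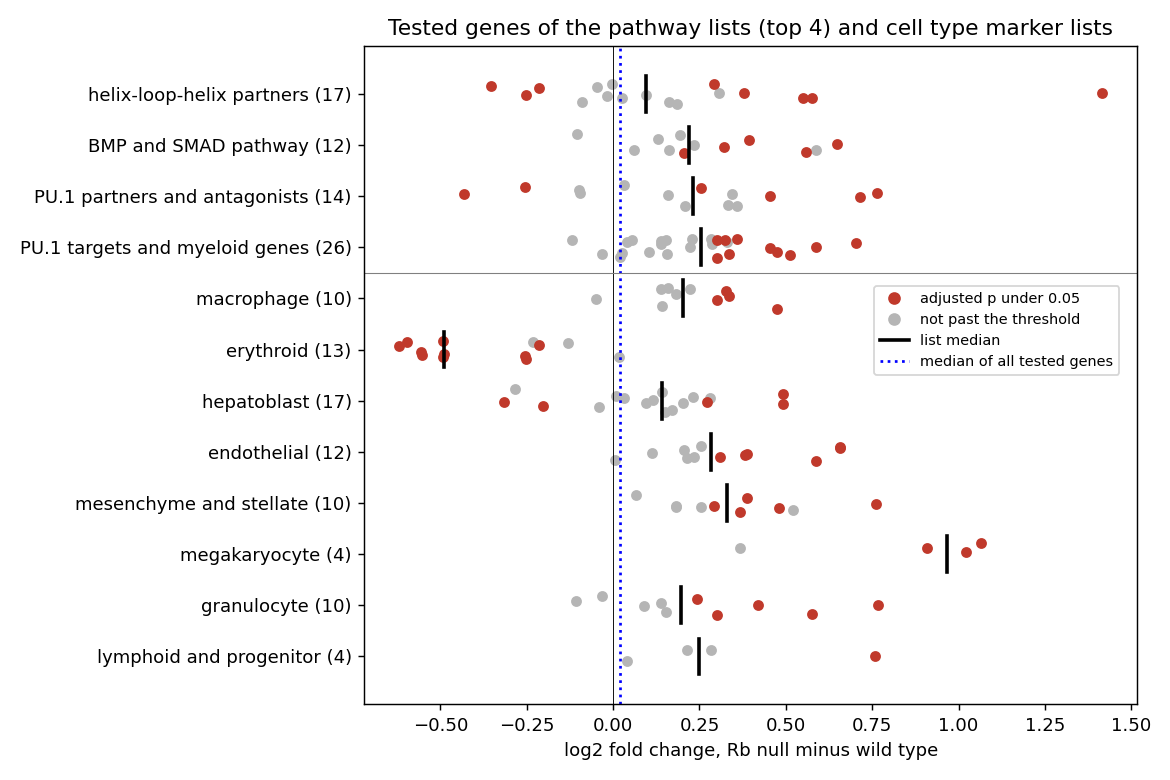
Log2 fold change (Rb null minus wild type) of every tested gene of the 4 pathway lists (top) and the marker lists (below the line), red at limma adjusted p below 0.05, with a black bar at each list median, a dotted line at the median of all tested genes (0.02) and the number tested in parentheses. Called genes of the BMP and SMAD and of the myeloid list lie to the right only, the list of helix-loop-helix genes and their partners (Lmo2 among its lower calls) and the PU.1 partner list have calls on both sides, and the called erythroid markers lie to the left only.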

How the data were processed

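Per the submitters' processing notes the authors computed the deposited intensity values with MAS5, and the version and scaling target are not given in the sources used here. The table holds 12488 probe sets on 6 arrays, with linear signals whose 2% trimmed mean was equal across arrays. Probe sets with 1 gene symbol in the platform annotation numbered 10833, with several 396 and with none 1193, and 66 array controls were left out. The log2 values of signal plus 50.02 (0.1 of the trimmed mean) were fitted with limma 3.58.1 in R 4.3.3 (lmFit, eBayes with intensity trend, genotype as the term) over 6793 probe sets with a mean signal above 150.1. P values were adjusted by Benjamini-Hochberg, with a threshold of 0.05. Where a gene had several probe sets the brightest on average was used. Precision is limited by the number of arrays.

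The members and lists were chosen with earlier results of these data known. Named genes were the members, Rb1, up to 4 called genes per pathway list with the largest change, the brightest tested marker of a list where used, and the 3 genes nearest to each member, with exceptions stated. The 18 alternatives were 3 normalizations, 2 offsets, 2 filters, 2 trend settings, a replicate block, 2 choices of probe sets and the omission of each embryo. Median scaling multiplied the deposited signals before the offset was added. The fit was checked on simulated data. Same-numbered embryos were checked for pairing, and their deviations correlated by -0.06, 0.07 and 0.27, so the numbers were not taken to pair the embryos.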

Additional observations from a re-analysis of the deposited data

How the results depend on the processing

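Across the 18 alternatives the Id3 rise kept its direction and its side of the threshold. Id1 did so in 8 of 17 and Id2 in 11 of 18, and Spi1 did not pass in any of 17. After median scaling Id1 was 0.21, Id2 0.17 and Spi1 -0.01, the whole array gave 366 higher and 1093 lower genes (25.1% of calls upward against 57.9% as deposited), and 2 BMP and SMAD genes and 5 myeloid genes were higher. Quantile normalization gave Id1 0.25, Id1 minus Id2 -0.15, Id2 minus Spi1 0.39 and 1 lower gene of the helix-loop-helix list. Cyclic loess gave Id1 0.25, Id1 minus Id2 -0.13, Id2 minus Spi1 0.37, 1 lower gene of the helix-loop-helix list and 6 higher myeloid genes. Without a filter Id1 (0.33, adjusted p = 0.072) and Id2 (0.30, adjusted p = 0.051) were no longer called, nor was Id2 without the intensity trend (0.30, adjusted p = 0.051). More probe sets are tested without a filter. The stricter filter of 500.2 left 428 higher genes over the whole array and 1 higher gene of the helix-loop-helix list among fewer tested, and it removed Id1 and Spi1. Lower PU.1 partners numbered 1, in place of 2, with no filter, the stricter filter, the mean of probe sets or without suffix probe sets. Id4 was 0.57 with the offset of 10.005, and Id1 minus Id2 was -0.01 with the offset of 150.1. With the replicate block 3 BMP and SMAD genes were higher, in place of 5, and Id1 (0.33, adjusted p = 0.033), Id2 (0.30, adjusted p = 0.028) and Id3 (0.61, adjusted p = 0.0046) stayed past the threshold. 2 of 3 Rb null embryos correlated best with the wild type embryo of their own number. Leaving out each embryo gave 0.27 to 0.40 for Id1, 0.25 to 0.38 for Id2, -0.07 to 0.13 for Id1 minus Id2, 406 to 553 higher and 257 to 428 lower genes, 3 to 4 higher BMP and SMAD genes, 5 to 9 higher myeloid genes, 1 to 3 lower genes of the helix-loop-helix list and 0 to 2 lower PU.1 partners. The fewest higher genes came without Rb null embryo 2 (406) and the fewest lower ones without wild type embryo 3 (257). Of the marker genes named, Hba-a1 was 0.00 and Alb 0.02 after quantile normalization, and 0.03 and 0.05 after cyclic loess, while Tcf3 was 0.02 without wild type embryo 1. Except where stated, the cause of these changes was not tested.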
